A study of Sus scrofa with 6 samples.

Results

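The collagen family was taken as every pig gene ID in the count files whose symbol is COL, a number, A and a number. The rule found 31 members among 25322 gene IDs, of which 11804 carry a symbol. The table of gene names lists 40 such symbols, and the other 9 (COL1A1, COL4A1, COL6A6, COL8A2, COL9A3, COL18A1, COL19A1, COL24A1 and COL25A1) are not analysed here. The members were placed in 7 textbook classes: 9 fibrillar, 5 basement membrane network, 5 beaded, 6 FACIT (fibril-associated with interrupted triple helices), 3 transmembrane, 2 hexagonal network and 1 multiplexin.

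Collagens are the main structural proteins of connective tissue. Each molecule is a triple helix of chains made from 1 or more genes, so the chains of a type are usually needed together. Fibrillar collagens assemble into the cables that bear tension, FACIT collagens decorate those cables, network collagens form the sheets under epithelia, vessels and muscle fibres, and beaded collagen VI forms fine filaments close to cells. In fat and muscle these chains come mostly from fibroblasts and related stromal cells, and in liver from stellate cells and portal fibroblasts.

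The pigs (Sus scrofa) were of the Berkshire breed, which is of British origin, and the Korean native breed, and RNA of their fat, liver and muscle was sequenced. There were 6 libraries, 1 for each breed and tissue, made from frozen tissue extracted with Trizol. The labels give the breed and the tissue of each library and no age, sex, diet, genotype or treatment, nor do they say which fat depot or muscle was taken. The title speaks of 3 pigs or tissues of each breed. Nothing in the labels tells if 1 animal gave all libraries of its breed. A p-value therefore rests on how far the breed difference varies between tissues, since no breed and tissue has a second library. That spread may be technical and does not measure variation between animals of a breed.

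Each library held between 5897407 and 7912093 counts on genes. Levels are given as CPM (counts on a gene divided by the size of the library) scaled by TMM, a factor that corrects for a few abundant genes taking up a library, and these factors ran from 0.736 to 1.615. A count of 0 allows a level of up to 0.294 to 0.692 CPM, the value of 3 counts in a library. The tissues matched their labels: 6 hepatocyte markers summed to 209600 and 244200 CPM in the livers and at most 63.7 CPM elsewhere, and 5 muscle fibre markers summed to 87110 and 136300 CPM in the muscles and at most 53.8 CPM elsewhere. The 4 adipocyte markers summed to 4416 and 3384 CPM in the fats, to 524 and 315 CPM in the muscles and to 27.4 and 30.3 CPM in the livers. In such bulk samples, fewer cells of a type and less RNA per cell cannot be told apart. In all pairs of values below the Berkshire library comes first, and levels are compared between libraries and not between genes, because transcript lengths were not used here.

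Collagen mRNA took up 3.12% of the gene counts in Berkshire fat (95% exact binomial interval 3.11% to 3.13%) and 3.63% in Korean native fat (3.61% to 3.64%). The livers gave 0.133% (0.130% to 0.136%) and 0.110% (0.107% to 0.112%). The muscles gave 2.22% (2.21% to 2.23%) in the Berkshire and 0.451% (0.445% to 0.456%) in the Korean native library. These intervals, like all counting intervals below, cover counting error only. The fats were alike and high, the livers alike and low, and the muscles lay apart, the Berkshire one nearer the fats and the Korean native one nearer the livers.

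The chain of collagen III, COL3A1, supplied between 45.2% and 60.0% of the collagen counts of every library. Fibrillar chains together made up 73.3% and 76.0% of collagen counts in the fats, 62.0% and 61.2% in the livers, and 82.7% and 65.6% in the muscles. Beaded chains made up 11.9% and 16.1% in the fats, 20.5% and 21.2% in the livers, and 10.4% and 22.1% in the muscles. Basement membrane chains made up 7.43% and 3.45%, 9.73% and 9.25%, and 2.92% and 6.67% in the same order, and FACIT chains between 3.43% and 7.55%. Liver therefore held a smaller fibrillar share than any fat or muscle library, and the fibrillar, beaded and basement membrane shares of Korean native muscle lay nearer those of liver than those of Berkshire muscle. A share of counts favours long transcripts and rises when another class falls.

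**Figure D1:**
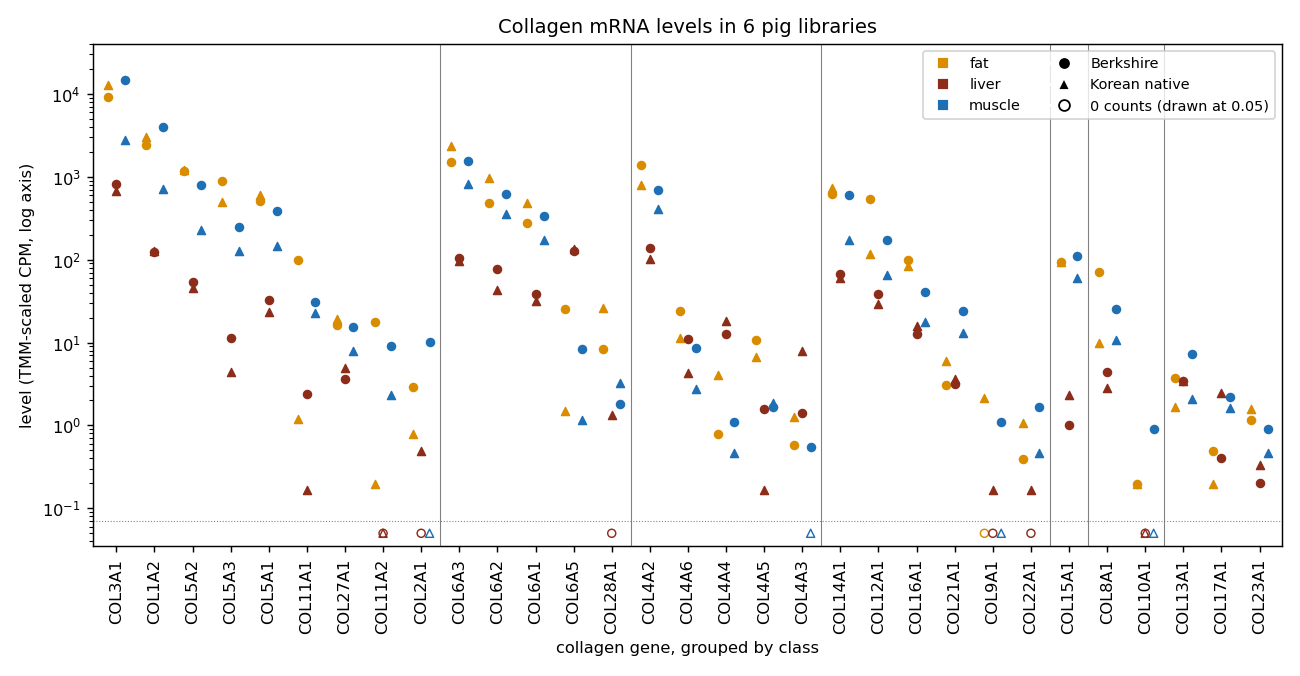
Level of each of the 31 collagen genes (TMM-scaled CPM, log axis) in the 6 libraries, with vertical lines between classes, colour for tissue and shape for breed; open symbols mark 0 counts. The liver symbols lie lowest for most genes from COL3A1 to COL15A1, except COL6A5, COL4A4 and COL4A3, where they lie highest.

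Tissues were compared with edgeR's quasi-likelihood test in a model of tissue and breed over the 6 libraries, two-sided, with Benjamini-Hochberg adjusted p held under 0.05 over 13810 genes. Of the 31 members 28 entered the test. COL9A1, COL10A1 and COL22A1 stood at no more than 2.17, 0.915 and 1.65 CPM in any library and did not. In liver against fat 19 of 28 members fell, where 13.5% of all genes did, and 2 rose, where 15.2% of all genes did. The members' median log2 difference was -3.28, and that of all genes was 0.06. In liver against muscle 17 fell and 3 rose, where 17.4% and 18.6% of all genes did, with medians of -2.32 and -0.01. In muscle against fat 4 fell and 1 rose, where 6.43% and 9.95% of all genes did, with medians of -0.88 and -0.05. In liver against fat each class except the transmembrane one held at least 1 member that fell. In liver against muscle the basement membrane chains had 2 higher, 1 lower and a median of 0.46. With 2 residual degrees of freedom, the spread is the extent to which the breed difference varies between tissues. Scaling by total counts moved the median of all genes in muscle against fat to -0.98. With it 14 collagens fell and 0 rose, beside 5247 and 766 of 13810 genes.

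**Figure D2:**
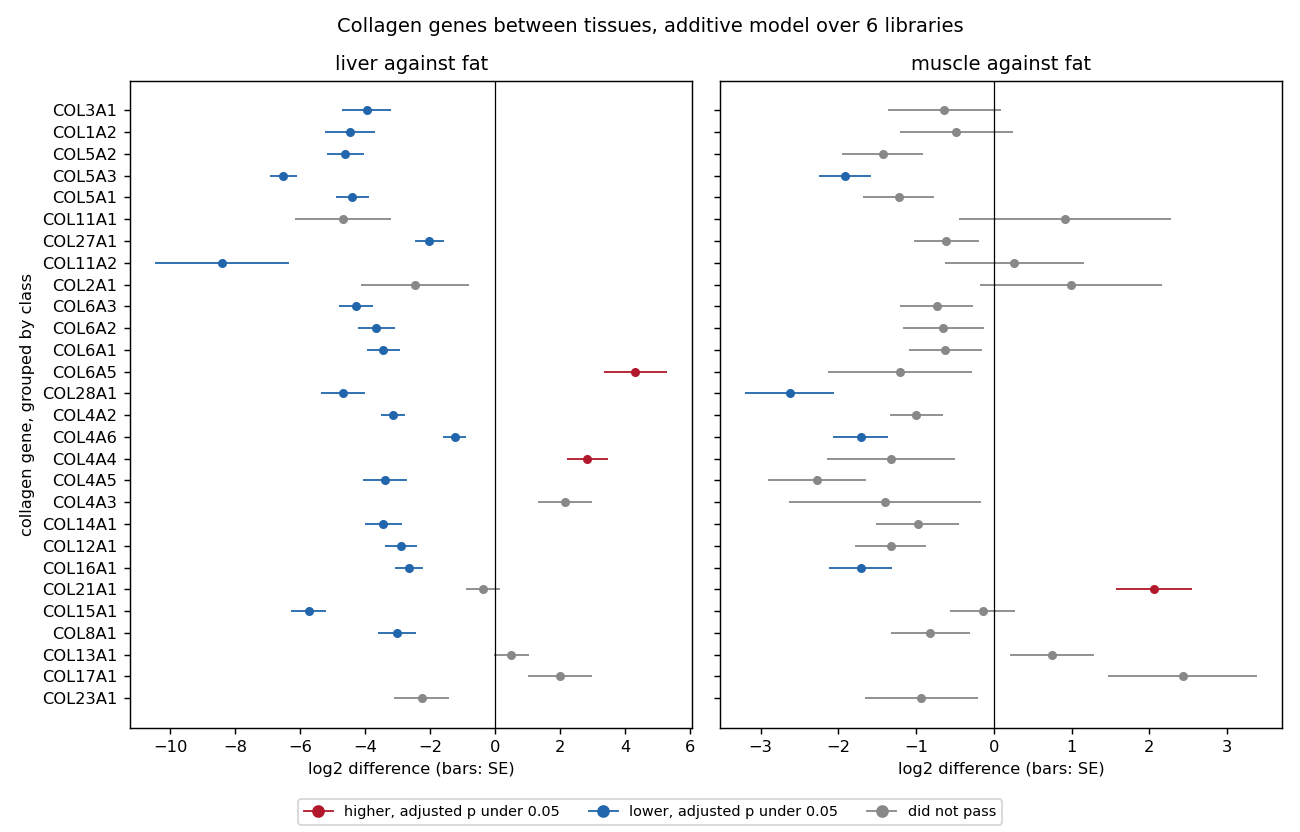
Log2 difference of each of the 28 tested collagen genes in liver against fat (left) and muscle against fat (right); points are estimates, bars are SE, and colour marks the call. On the left 19 points lie below 0 and passed and 2 (COL6A5 and COL4A4) lie above 0 and passed, while on the right 5 points passed; COL11A2 has 0 counts in both livers, so its fitted value on the left depends on the prior count.

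Among the fibrillar chains, 7 of 9 fell in liver against fat and 8 of 9 in liver against muscle. COL3A1 (ENSSSCG00000016034) stood at 9065 and 12757 CPM in the fats, 819 and 673 in the livers and 14585 and 2773 in the muscles. COL1A2 (ENSSSCG00000015326), a chain of collagen I, the main protein of tendon, skin and bone, stood at 2413 and 3045 CPM in the fats, 123 and 128 in the livers and 4010 and 717 in the muscles. Every fat and muscle library lay above both livers for these genes, and the fats lay between the muscles. COL3A1 fell 15.6-fold in liver against fat (log2 difference -3.96 ± 0.76, SE; adjusted p = 0.0087) and 9.99-fold in liver against muscle (-3.32 ± 0.76; adjusted p = 0.014). COL1A2 fell 22.2-fold (-4.47 ± 0.78; adjusted p = 0.0058) and 15.9-fold (-3.99 ± 0.79; adjusted p = 0.0079). Muscle against fat gave log2 differences of -0.64 ± 0.73 for COL3A1 and -0.48 ± 0.72 for COL1A2 (adjusted p = 0.57 and 0.67). The calls of COL3A1 each held under 11 of 12 alternatives. Without Korean native fat the liver against fat value was -2.85, and without Berkshire muscle the liver against muscle value was -1.83, and neither passed. Both genes turned sign in muscle against fat without Korean native fat (0.26 for COL3A1 and 0.24 for COL1A2) and without Korean native muscle (0.49 and 0.67). COL1A2 fell there without Berkshire muscle (-2.13; adjusted p = 0.033), which also left its liver against muscle value at -2.42.

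Collagen V is the minor fibrillar collagen that sits inside collagen I fibrils and limits their width. COL5A1 (ENSSSCG00000005751) stood at 515 and 611 CPM in the fats, 32.4 and 23.4 in the livers and 388 and 146 in the muscles. COL5A2 (ENSSSCG00000016035), the neighbour of COL3A1 in the Sscrofa11.1 RefSeq gene order, stood at 1167 and 1223 CPM, 53.8 and 45.9, and 788 and 227. COL5A3 (ENSSSCG00000013667), a chain of a rarer collagen V heterotrimer, stood at 881 and 500 CPM, 11.4 and 4.47, and 247 and 126. All fats lay above all muscles and all muscles above all livers for the 3 chains. COL5A3 fell 91.8-fold in liver against fat (log2 difference -6.52 ± 0.42; adjusted p = 0.00011), 24.3-fold in liver against muscle (-4.61 ± 0.39; adjusted p = 0.00022) and 3.77-fold in muscle against fat (-1.91 ± 0.34; adjusted p = 0.012). COL5A1 fell 21.1-fold and COL5A2 24.5-fold in liver against fat (adjusted p = 0.0011 and 0.0015), and their muscle against fat values of -1.22 ± 0.46 and -1.43 ± 0.52 did not pass (adjusted p = 0.11 and 0.10). The count of COL5A3 over that of COL5A1 was 1.71 and 0.819 for the fats, 0.352 and 0.192 for the livers and 0.636 and 0.863 for the muscles, lowest in the livers and overlapping between fat and muscle. COL5A2 over COL5A1 stayed between 1.55 and 2.27 in all 6 libraries. The muscle against fat call of COL5A3 was lost without Korean native fat (-1.75) and without Korean native muscle (-1.95), and COL5A1 and COL5A2 fell there without Berkshire muscle (-2.01 and -2.47).

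The remaining fibrillar chains included those of cartilage. COL11A1 (ENSSSCG00000006857) and COL11A2 (ENSSSCG00000001473) encode collagen XI, which nucleates thin fibrils in cartilage and is also made in tendon. COL11A1 stood at 99.1 and 1.18 CPM in the fats, 2.40 and 0.166 in the livers and 30.8 and 22.8 in the muscles. COL11A2 stood at 17.6 and 0.197 CPM in the fats, at 0 counts in both livers and at 9.15 and 2.31 CPM in the muscles. The Berkshire fat was the highest library for both, while the Korean native fat lay at or near the level of the livers. COL11A1 fell 48.4-fold in liver against muscle (log2 difference -5.60 ± 1.55; adjusted p = 0.029). Its liver against fat value of -4.68 ± 1.48 did not pass (adjusted p = 0.054). That value passed with DESeq2 (adjusted p = 0.03), total counts (adjusted p = 0.017) and no low-count filter (adjusted p = 0.013). It did not pass under the other alternatives that kept all 6 libraries, and it was -5.96 without Korean native fat. The call against muscle was lost with limma-voom (-4.54; adjusted p = 0.054) and without a breed term (-4.44; adjusted p = 0.096), and its size ranged from -3.51 without Korean native muscle to -9.18 without Berkshire muscle. In liver COL11A2 stood at least 14.8-fold below the mean of the fats and at least 9.55-fold below that of the muscles, taking 3 counts in a library as the floor, and both calls passed (adjusted p = 0.027 and 0.023). They were lost without Berkshire liver (adjusted p = 0.18 and 0.12), and the one against fat also without Berkshire fat (adjusted p = 0.22). COL27A1 (ENSSSCG00000005487), a fibrillar chain known from cartilage, stood at 16.2 and 19.4 CPM in the fats, 3.60 and 4.97 in the livers and 15.6 and 7.84 in the muscles and fell 4.11-fold in liver against fat (adjusted p = 0.015). Its calls were lost without some libraries, against fat without Berkshire liver (-1.70) or Korean native fat (-1.71) and against muscle without Berkshire liver (-1.05), Korean native liver (-1.83) or Berkshire muscle (-0.71). COL2A1 (ENSSSCG00000025523), the main cartilage collagen, reached 10.1 CPM in Berkshire muscle, 2.94 and 0.789 CPM in the fats, 0.497 CPM in Korean native liver and 0 counts in Berkshire liver and Korean native muscle, with no call.

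Collagen VI, the filament that links basement membranes to the matrix around fat cells and muscle fibres, followed the fibrillar chains with 1 exception. COL6A1 (ENSSSCG00000022506) stood at 276 and 481 CPM in the fats, 38.4 and 32.0 in the livers and 334 and 171 in the muscles. COL6A2 (ENSSSCG00000028022) stood at 488 and 969 CPM, 77.4 and 42.9, and 614 and 358. COL6A3 (ENSSSCG00000027331) stood at 1505 and 2373 CPM, 104 and 95.8, and 1563 and 822. The Korean native fat was highest for all 3 chains, and both livers lay below every other library. These chains fell 10.9-, 12.7- and 19.7-fold in liver against fat (adjusted p = 0.0028, 0.0037 and 0.0013) and 7.10-, 8.09- and 11.8-fold in liver against muscle (adjusted p = 0.0045, 0.0055 and 0.0019), and these calls held under each of 12 alternatives. COL6A2 counts were 1.34 to 2.09 times those of COL6A1, and COL6A3 counts were 5.45 and 4.93 times those of COL6A1 in fat, 4.68 and 4.80 times in muscle, and 2.70 and 3.00 times in liver.

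COL6A5 (ENSSSCG00000011186), a later-described chain of collagen VI related to COL6A3, ran the other way. It stood at 126 and 133 CPM in the livers, 25.4 and 1.48 in the fats and 8.42 and 1.15 in the muscles. The livers matched each other closely and lay above every other library, and in fat and muscle the Berkshire library was the higher one. COL6A5 rose 19.8-fold in liver against fat (log2 difference 4.31 ± 0.97; adjusted p = 0.016) and 45.8-fold in liver against muscle (5.52 ± 1.02; adjusted p = 0.0061). Without a breed term the first of these did not pass (log2 difference 3.27; adjusted p = 0.074), and its size ran from 2.47 without Korean native liver to 6.19 without Berkshire liver. Its count was 1.22 and 1.39 times that of COL6A3 in liver, and 0.0169 and 0.000623 times in fat. COL28A1 (ENSSSCG00000015342), a collagen with domains like those of collagen VI that is known from peripheral nerve, stood at 8.32 and 26.2 CPM in the fats, at 0 counts and 1.33 CPM in the livers and at 1.83 and 3.23 CPM in the muscles. Both fats lay above the other 4 libraries. It fell 25.8-fold in liver against fat (-4.69 ± 0.67; adjusted p = 0.0027) and 6.18-fold in muscle against fat (-2.63 ± 0.57; adjusted p = 0.025). The second of these was lost without Berkshire fat (-2.69), Korean native fat (-2.56) or Korean native muscle (-2.04).

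Collagen IV forms the sheet of every basement membrane, and its 6 chains come as neighbouring pairs of genes. COL4A2 (ENSSSCG00000009545), a chain of the common heterotrimer, stood at 1402 and 801 CPM in the fats, 137 and 103 in the livers and 697 and 404 in the muscles. All fats lay above all muscles, and all muscles above all livers. It fell 8.90-fold in liver against fat (log2 difference -3.15 ± 0.37; adjusted p = 0.0011) and 4.46-fold in liver against muscle (-2.15 ± 0.36; adjusted p = 0.0037), and its muscle against fat value of -0.998 ± 0.34 did not pass (adjusted p = 0.09), though it did with DESeq2 (adjusted p = 0.013), limma-voom (adjusted p = 0.049) and total counts (adjusted p = 0.011). COL4A1, its partner, is not analysed here.

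The other pairs of collagen IV chains, known from kidney and other specialised membranes, were low and did not share a direction. COL4A4 (ENSSSCG00000016244) stood at 12.6 and 18.1 CPM in the livers, 0.783 and 4.04 in the fats and 1.098 and 0.461 in the muscles. COL4A3 (ENSSSCG00000016245) stood at 1.40 and 7.95 CPM in the livers, 0.588 and 1.28 in the fats, and 0.549 CPM and 0 counts in the muscles. Both genes were highest in liver, and they overlap each other in the Sscrofa11.1 RefSeq annotation, so their reads cannot be fully told apart without strand. COL4A4 rose 7.08-fold in liver against fat (log2 difference 2.82 ± 0.63; adjusted p = 0.015) and 17.7-fold in liver against muscle (4.14 ± 0.76; adjusted p = 0.0058), and COL4A3 rose in liver against muscle (3.55 ± 1.12; adjusted p = 0.045). The COL4A4 call against fat was lost without Berkshire fat (1.99), and the COL4A3 call without Korean native liver (2.24) or Korean native muscle (1.73). COL4A5 (ENSSSCG00000012572) stood at 10.7 and 6.61 CPM in the fats, 1.60 and 0.166 in the livers and 1.65 and 1.85 in the muscles. COL4A6 (ENSSSCG00000012571), its neighbour, stood at 23.8 and 11.4 CPM, 11.0 and 4.31, and 8.60 and 2.77. The fats were the highest libraries of each breed for this pair. COL4A5 fell 10.6-fold in liver against fat (log2 difference -3.40; adjusted p = 0.010), a value of -5.34 without Berkshire liver. Its muscle against fat value of -2.28 ± 0.63 lay at the threshold (adjusted p = 0.05) and was -2.27 without either liver. It passed with DESeq2 size factors (adjusted p = 0.048), DESeq2 (adjusted p = 0.038) and limma-voom (adjusted p = 0.041). Total counts (adjusted p = 0.0095) and no low-count filter (adjusted p = 0.024) also gave a call, and leaving out the breed term did not. COL4A6 fell 2.39-fold in liver against fat (adjusted p = 0.031) and 3.28-fold in muscle against fat (adjusted p = 0.021). The liver against fat call of COL4A6 was lost on leaving out any 1 of the 4 fat and liver libraries (adjusted p = 0.078 to 0.17), and its muscle against fat call without Berkshire fat, Korean native fat or Korean native muscle (-1.94, -1.52 and -1.52).

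The FACIT collagens sit on the surface of collagen I fibrils. COL12A1 (ENSSSCG00000004484), a FACIT of tendon and fascia, stood at 545 and 118 CPM in the fats, 38.4 and 29.2 in the livers and 172 and 64.6 in the muscles. COL14A1 (ENSSSCG00000005997), a related FACIT of the same fibrils, stood at 616 and 727 CPM, 67.0 and 59.8, and 596 and 174. COL16A1 (ENSSSCG00000003603) stood at 99.8 and 84.7 CPM, 12.8 and 15.7, and 40.5 and 17.8. The livers were the lowest libraries for these 3 chains, and for COL12A1 the Korean native fat lay below the Berkshire muscle, so that fat and muscle overlapped. In liver against fat COL12A1 fell 7.54-fold (log2 difference -2.92 ± 0.49; adjusted p = 0.0052), COL14A1 fell 10.9-fold (-3.44 ± 0.56; adjusted p = 0.0044) and COL16A1 fell 6.31-fold (-2.66 ± 0.42; adjusted p = 0.0038). COL16A1 also fell in muscle against fat (-1.72 ± 0.40; adjusted p = 0.031), a call lost without Berkshire fat (-1.83), Korean native fat (-1.61) or Korean native muscle (-1.18). In liver against muscle COL14A1 fell 5.51-fold (-2.46, or -1.44 without Berkshire muscle; adjusted p = 0.013), and COL12A1 fell 3.00-fold (adjusted p = 0.036), a call lost without Berkshire liver (-0.96), Berkshire muscle (-1.55) or Korean native muscle (-1.64).

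COL21A1 (ENSSSCG00000001500), a small FACIT, was the 1 collagen that rose in muscle against fat. It stood at 23.8 and 13.1 CPM in the muscles, 3.04 and 5.92 in the fats and 3.20 and 3.65 in the livers. Both muscles lay above all other libraries. The difference was 4.17-fold against fat (log2 difference 2.06 ± 0.49; adjusted p = 0.033) and 5.42-fold against liver (adjusted p = 0.010). It did not pass against fat without Berkshire fat (1.39) or Berkshire muscle (1.19), nor did the log2 difference of liver against muscle without Berkshire muscle (-1.64).

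COL15A1 (ENSSSCG00000005380), a multiplexin of the outer basement membrane of muscle, fat and capillaries, stood at 93.2 and 93.3 CPM in the fats, 1.00 and 2.32 in the livers and 112 and 59.5 in the muscles. The fats were nearly identical, and the livers lay far below. It fell 53.8-fold in liver against fat (log2 difference -5.75 ± 0.55; adjusted p = 0.00048) and 48.7-fold in liver against muscle (-5.60 ± 0.55; adjusted p = 0.00038), under each of 12 alternatives. COL8A1 (ENSSSCG00000011973), a short-chain network collagen of vessel walls, stood at 70.3 and 9.86 CPM in the fats, 4.40 and 2.82 in the livers and 25.1 and 10.6 in the muscles. It fell 8.15-fold in liver against fat (-3.03, or -1.99 without Berkshire fat; adjusted p = 0.0084) and 4.62-fold in liver against muscle (adjusted p = 0.023), the latter lost without Berkshire liver (-1.51) or Korean native muscle (-1.85). Its muscle against fat value of -0.82 ± 0.51 did not pass and turned to 0.25 without Berkshire fat. The transmembrane collagens COL13A1, COL17A1 and COL23A1, which are anchored in the cell membrane, stayed at or below 7.32, 2.49 and 1.58 CPM in all libraries and none passed.

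Some other cell types' markers moved with these tissue differences. The 4 fibroblast markers with an ID (PDGFRA, FAP, PI16 and CLEC3B, of 9 listed) summed to 855 and 798 CPM in the fats, 212 and 119 in the livers and 777 and 255 in the muscles, with none at 0 in any library. In liver against fat 13.5% of all genes fell and 15.2% rose, and in liver against muscle 17.4% fell and 18.6% rose. Of the 4 fibroblast markers 3 fell in the first comparison and 1 in the second, and 0 rose. Of 6 endothelial markers 3 fell and 0 rose in the first, and 1 fell and 1 rose in the second. Of the 6 stellate cell markers with an ID 4 rose and 1 fell in each. LRAT and LHX2 were at 0 in all 4 fat and muscle libraries and detected in both livers, while PDGFRB fell in liver against fat (log2 difference -2.14; adjusted p = 0.006). The list summed to 79.1 and 100.4 CPM in the fats, 205 and 148 in the livers and 5907 and 6340 in the muscles, where DES, also a muscle gene, stood at 5878 and 6309 CPM. Endothelial markers summed to 1143 and 839 CPM in the fats, 466 and 442 in the livers and 561 and 538 in the muscles. The part of these cells in the tissue differences of collagens was not tested.

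The breeds were first compared over the 3 tissues together, as the breed coefficient of the same model. No collagen passed: 0 of 28 rose in Korean native against Berkshire, where 0.029% of all genes did, and 0 fell, where 0.0797% did. DESeq2 and limma-voom also called 0 members. At an unadjusted p under 0.05 in edgeR 9 members stood out, beside 1103 of 13810 genes. The median log2 difference of the members was -0.60 against 0.02 for all genes, with 22 of 28 lower in Korean native. That median rested on muscle, since it was 0.07 without Berkshire muscle and 0.06 without Korean native muscle. COL4A6 stood at -1.31 ± 0.29 (adjusted p = 0.34), COL5A3 at -1.02 ± 0.28 (adjusted p = 0.44), COL12A1 at -1.36 ± 0.39 (adjusted p = 0.45) and COL28A1 at 1.60 ± 0.51 (adjusted p = 0.49). COL11A1 stood at -3.18 ± 1.27 (adjusted p = 0.59) and passed without Berkshire muscle (-6.11) or Korean native muscle (-6.13). COL6A5 stood at -2.01 ± 0.81 (adjusted p = 0.60) and passed without either liver (-3.64 each), and COL11A2 (-3.79 ± 0.98; adjusted p = 0.44) passed without Korean native liver (-3.82).

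Within a tissue each breed had 1 library, so the following values compare 2 libraries, have no replicate check and carry no p-value. A member was counted where either of the 2 libraries reached 5 CPM, and called apart at 2-fold or more after adding a prior count of 2. Folds in the text are ratios of CPM without that prior, each with its 95% exact binomial counting interval.

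In fat members of the same class lay on either side. Of 22 counted members 6 were at least 2-fold lower in the Korean native library, where 3.71% of all genes were, and 1 was higher, where 4.68% were. The median log2 ratio was 0.03, with 12 members above 0 and 10 below, and that of all genes was 0.02. Scaling by total counts gave 2 higher members in place of 1, where 4.44% of all genes were higher. COL12A1 was 4.62-fold lower (4.34 to 4.92), COL8A1 was 7.13-fold lower (5.78 to 8.88), COL6A5 was 17.2-fold lower (10.2 to 31.1) and COL4A6 was 2.08-fold lower (1.66 to 2.62). COL11A1, at 1012 counts in Berkshire and 12 in Korean native fat, was 83.8-fold lower (47.7 to 163), and COL11A2, at 180 and 2 counts, was 89.4-fold lower (24.4 to 744). COL28A1 was 3.15-fold higher (2.46 to 4.07). The abundant chains COL3A1, COL1A2, COL6A1, COL6A2 and COL6A3 lay on the other side of 1, with log2 ratios of 0.49, 0.34, 0.80, 0.99 and 0.66. The count of COL12A1 over that of COL14A1 was 0.884 in Berkshire and 0.162 in Korean native fat, and 0.573 and 0.488 in the livers.

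Markers of tendon and cartilage cells moved in fat as well. The 12 with an ID summed to 190 CPM in Berkshire and 93.8 in Korean native fat. Of the 7 that could be counted 3 were at least 2-fold lower and 2 higher, where 3.71% and 4.68% of all genes were. TNMD, a membrane protein of tendon cells and fat cell precursors, stood at 17.9 CPM and 0 counts. CHAD, a cartilage matrix protein, stood at 13.0 and 4.93 CPM and KERA at 44.1 and 0.296 CPM. KERA is also in the proteoglycan list below and enters the counts of both lists, in fat and in muscle. MKX, a tendon transcription factor, stood at 3.33 CPM and 0 counts and was too low to be counted. THBS4, a matrix protein of tendon and muscle, stood at 7.35 and 22.5 CPM, and SOX9, the chondrocyte transcription factor, at 0.979 and 6.41 CPM. CDH19, a cadherin of Schwann cells, stood at 2.35 and 6.90 CPM. Fibroblast markers summed to 855 and 798 CPM and adipocyte markers to 4416 and 3384 CPM, of which 2 of 4 (the lipase LIPE and the lipid droplet protein CIDEC) were at least 2-fold lower in Korean native. The part of these cells in the collagen ratios of fat was not tested.

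In liver fewer collagens could be counted than in fat or muscle. Of 16 counted members 1 was at least 2-fold higher in the Korean native library, where 6.18% of all genes were, and 2 were lower, where 5.82% were. The median log2 ratio was -0.25, with 5 members above 0, against 0.00 for all genes. COL4A3, at 1.40 and 7.95 CPM, was 5.68-fold higher (2.56 to 14.9). COL4A6 was 2.55-fold lower (1.58 to 4.24), and COL5A3 was 2.55-fold lower (1.59 to 4.19). COL1A2 and COL6A5 differed by log2 ratios of 0.06 and 0.08. None of the 3 members that were at least 2-fold apart reached 5 CPM in both livers, and the counting intervals of the larger chains were narrow enough that COL3A1, at a log2 ratio of -0.28, differed beyond counting error.

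In muscle all 22 counted members were lower in the Korean native library. At least 2-fold lower were 13 of them, where 10.2% of all genes were, and 0 were at least 2-fold higher, where 10.7% were. The median log2 ratio was -1.31, against 0.05 for all genes. Among the abundant fibrillar chains COL1A2 was 5.59-fold lower (5.39 to 5.81), COL3A1 was 5.26-fold lower (5.16 to 5.36) and COL5A2 was 3.48-fold lower (3.24 to 3.73). COL2A1 had 55 counts in Berkshire and 0 in Korean native muscle and was at least 14.5-fold lower. The FACIT chain COL14A1 was 3.42-fold lower (3.16 to 3.70), and the beaded chain COL6A5, at 46 and 5 counts, was 7.30-fold lower (2.91 to 23.5). The log2 ratios of COL6A1, COL6A2 and COL6A3 were -0.96, -0.78 and -0.93. Those of the basement membrane chains COL4A2 and COL4A6 were -0.79 and -1.54, and that of COL15A1 was -0.91. The fibrillar chains COL5A3, COL27A1 and COL11A1 had log2 ratios of -0.97, -0.96 and -0.42. Scaling by total counts moved the median of all genes to -0.28 and that of the members to -1.62. Then 21 members were at least 2-fold lower, where 17.5% of all genes were.

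The same muscle libraries differed in other connective tissue markers. Fibroblast markers summed to 777 and 255 CPM, and 3 of 4 were at least 2-fold lower in Korean native, where 10.2% of all genes were. Smooth muscle markers summed to 832 and 348 CPM with 4 of 5 lower, and tendon and cartilage markers summed to 470 and 367 CPM with 6 of 8 lower. Adipocyte markers summed to 524 and 315 CPM with 3 of 4 lower, among them PLIN1, a lipid droplet protein, at 95.7 and 18.9 CPM. Endothelial markers summed to 561 and 538 CPM with 0 of 6 apart. Muscle fibre markers went the other way, at 87110 and 136300 CPM. All 5 had a ratio above 1, and 2 were at least 2-fold higher, where 10.7% of all genes were. The part of these cells in the collagen ratios of muscle was not tested.

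COL4A6 was the 1 collagen, of 14 that could be counted in all 3 tissues, that was at least 2-fold lower in Korean native each time. Among all genes 0.403% were lower and 0.154% higher in this way, and 0 collagens were higher. The Berkshire libraries held 243, 55 and 47 counts of it in fat, liver and muscle, and the Korean native ones 116, 26 and 12. Its neighbour COL4A5 had 109, 8 and 9 counts in the Berkshire and 67, 1 and 8 in the Korean native libraries.

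**Figure D3:**
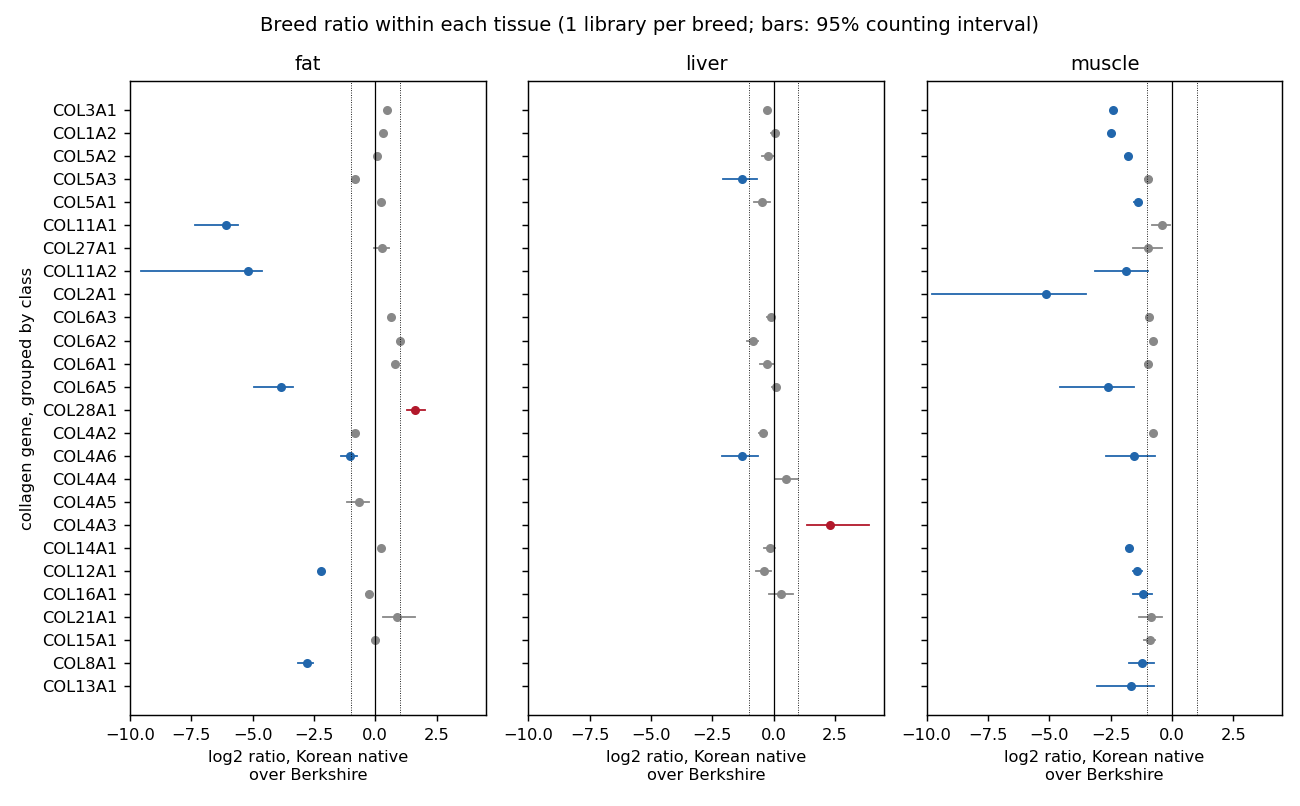
Log2 ratio of Korean native over Berkshire for the collagens that reached 5 CPM in either library of a tissue (22 in fat, 16 in liver, 22 in muscle); bars are 95% counting intervals, dotted lines mark 2-fold, and coloured points are at least 2-fold apart. All 22 points lie below 0 in muscle, while in fat 12 lie above and 10 below; the bar of COL2A1 in muscle has no lower end because 1 library has 0 counts.

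Genes that work on collagen were examined from 4 lists. Beside their counts, 13.5% of all genes fell and 15.2% rose in liver against fat. In liver against muscle 17.4% of all genes fell and 18.6% rose, and in muscle against fat 6.43% fell and 9.95% rose. The first list holds enzymes and chaperones that modify and fold the chains in the cell, of which 13 of 20 symbols had an ID. In liver against fat 8 fell and 2 rose, in liver against muscle 5 fell and 1 rose, and in muscle against fat none passed. The prolyl hydroxylase subunit P4HA1 stood at 179 and 101 CPM in the fats, 64.8 and 51.7 in the livers and 142 and 66.7 in the muscles, and fell in liver against fat (log2 difference -1.20; adjusted p = 0.032). MIA3, which loads bulky procollagen into transport vesicles, stood at 139 and 153 CPM, 442 and 267, and 166 and 162, and rose there (1.25; adjusted p = 0.038). The second list holds the proteases that trim procollagen and the lysyl oxidases that crosslink it. Of its 10 tested genes 8 fell in liver against fat and 4 in liver against muscle. In muscle against fat 1 fell, the C-proteinase BMP1, named after its value was seen (log2 difference -2.00; adjusted p = 0.018). PCOLCE, an enhancer of that cleavage, stood at 208 and 362 CPM in the fats, 34.6 and 23.9 in the livers and 282 and 105 in the muscles and fell in liver against fat (-3.37; adjusted p = 0.0053). ADAMTS2, the N-proteinase, stood at 241 and 296 CPM in the fats, 19.0 and 19.2 in the livers and 135 and 43.8 in the muscles and fell in liver against fat (-3.83; adjusted p = 0.0025).

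Proteoglycans that bind collagen fibrils formed the third list, with 9 tested. In liver against fat 6 fell and 0 rose, where 13.5% and 15.2% of all genes did. In liver against muscle 5 fell and 1 rose, where 17.4% and 18.6% of all genes did. LUM (lumican) stood at 413 and 566 CPM in the fats, 2.60 and 5.63 in the livers and 579 and 245 in the muscles and fell in liver against fat (log2 difference -6.87; adjusted p = 0.00063). DCN (decorin) stood at 1277 and 2408 CPM, 72.2 and 86.7, and 1954 and 978. In the fourth list, the receptors, 3 of 8 fell and 1 rose in liver against fat, where 13.5% and 15.2% of all genes did. MRC2, which takes up collagen for breakdown, fell (-4.33; adjusted p = 0.00071), as did DDR2, a collagen-activated receptor kinase (-2.43; adjusted p = 0.023), and the integrin chain ITGA11 (-4.46; adjusted p = 0.00078). The integrin chain ITGA1 rose (1.06; adjusted p = 0.046), and these integrins were named after their values were seen. ITGB1, the beta chain that both pair with, stood between 377 and 538 CPM in the 6 libraries. Between breeds over the 3 tissues none of the genes of these lists passed.

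Within tissues the companion lists differed by breed in muscle and fat. In muscle 10.2% of all genes were at least 2-fold lower in Korean native. By the same rule 8 of 9 proteoglycans, 6 of 8 trimming and crosslinking genes, 4 of 13 assembly genes and 0 of 8 receptors were lower. Their median log2 ratios were -1.62, -1.26, -0.75 and -0.54, beside -1.31 for the collagens. LOX, the main lysyl oxidase, stood at 66.1 and 16.4 CPM there, ASPN (asporin) at 156 and 30.5 CPM, and FKBP10, a chaperone of procollagen, at 8.24 and 2.08 CPM. In fat 3 of 9 proteoglycans were lower: KERA (keratocan) at 44.1 and 0.296 CPM, ASPN at 156 and 58.0 CPM and FMOD (fibromodulin), a regulator of tendon fibrils named after its values were seen, at 397 and 89.5 CPM. All 9 trimming and crosslinking genes counted in fat had a ratio above 1, with a median log2 ratio of 0.40, and 3 were at least 2-fold higher, among them the lysyl oxidase LOXL4 at 4.70 and 19.2 CPM. Among all genes in fat 4.68% were at least 2-fold higher and 3.71% lower. Of 13 assembly genes 2 were higher and 2 lower in fat, and of 8 receptors 2 were higher and 1 lower. Among those higher, P4HA3, a further prolyl hydroxylase subunit, stood at 2.35 and 8.78 CPM and DDR2 at 21.1 and 74.7 CPM. The lower ones, named after their values were seen, were P3H2 at 47.9 and 18.3 CPM, COLGALT2 at 7.15 and 2.86 CPM and ITGA2 at 24.2 and 9.17 CPM.

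**Figure D4:**
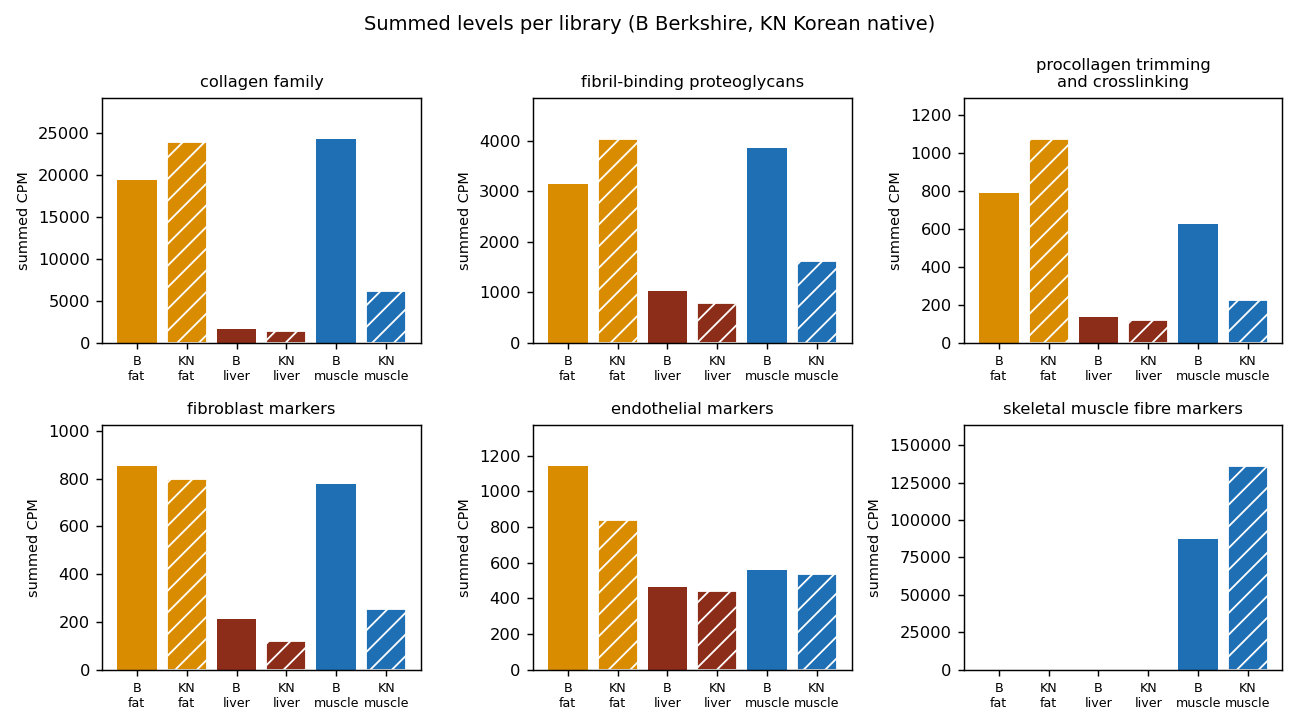
Summed level (TMM-scaled CPM, linear axes from 0) of the collagen family, 2 companion lists and 3 marker lists in the 6 libraries, solid bars for Berkshire (B) and hatched bars for Korean native (KN). The collagen, proteoglycan, trimming and fibroblast sums are low in both livers and lower in Korean native than in Berkshire muscle, where the endothelial sums are 561 and 538 CPM.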

How the data were processed

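Per the submitters' processing notes, the authors used TopHat on build Sscrofa10.2 and HTSeq 0.5.3p3 for counting. They deposited unnormalised counts for each Ensembl gene ID. The strand setting was not given in the sources used here, and an overlapping or antisense gene may therefore share reads with a member. The 5 closing entries that name no gene entered neither library sizes nor tests. Among all entries of a library, 45.9% to 52.5% lay outside annotated genes and 14.1% to 20.8% had no unique alignment. Symbols came from a supplied name table that matched 46.6% of the IDs. Gene order came from the RefSeq annotation of Sscrofa11.1, and no coordinates are given because the builds differ.

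edgeR 4.0.16 in R 4.3.3 was used with TMM factors, filterByExpr on the design of tissue and breed, which left 13810 genes, and the quasi-likelihood test, two-sided, with Benjamini-Hochberg adjustment over all genes at 0.05. The biological coefficient of variation was 29.5%. SEs were derived as the absolute log2 difference divided by the root of its F statistic, since the fit gives none. Ratios within a tissue used a prior count of 2. DESeq2 1.42.0, limma 3.58.1, other scalings and filters, no breed term and leaving out each library were tried as alternatives. Leaving out a library leaves fewer residual degrees of freedom, so a call could be lost where the difference did not shrink. The code was first run on simulated counts with known fold differences. These held no built-in change of the breed difference between tissues, so they do not check the spread of these data. All 24 members with at least 10 CPM in a library are given in every library. The members, classes, companion and marker lists were chosen with earlier results of these data known. Of each companion list at most 4 genes were to be named, those of highest mean CPM and those furthest apart between breeds, and any further gene is marked where it is named. Chains of 1 trimer were to be compared per length. Lengths were not used here, so their count ratios are compared only between libraries. Replicates are 1 library per breed and tissue. Part of 1 marker list is not reported here.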

Additional observations from a re-analysis of the deposited data

Results flagged for a closer look

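For 9 of the 26 collagens counted in at least 1 tissue, the breeds differed in opposite directions in different tissues with counting intervals that lay on either side of 1. The share of all genes that meet this rule was not computed, so whether 9 of 26 is unusual cannot be told. Counting intervals are narrow for genes with many counts, which meet the rule more easily. The difference between tissues was not tested, since each breed has 1 library per tissue, and the use of counting intervals for this choice was made after the values were seen. All values are log2 ratios of Korean native over Berkshire. COL3A1 had 0.493 in fat, -0.283 in liver and -2.40 in muscle. COL1A2, the other abundant fibrillar chain, had 0.335 in fat and -2.48 in muscle. COL5A1 had 0.246 in fat, -0.467 in liver and -1.41 in muscle, and COL5A2 had 0.0676 in fat and -1.80 in muscle. The FACIT chains COL14A1 and COL21A1 had 0.239 and 0.900 in fat and -1.77 and -0.842 in muscle. For collagen VI the values were 0.800 and -0.964 (COL6A1), 0.989 and -0.780 (COL6A2) and 0.656 and -0.927 (COL6A3) in fat and muscle, and COL6A2 had -0.847 in liver. In each of the 9 the Korean native library was the higher one in fat and the lower one in muscle under TMM scaling. The counting intervals leave out error in the scaling. By total counts the fat ratio of COL5A2 lay just below 1, at 11912 of 6335124 gene counts in Berkshire and 12399 of 6676206 in Korean native fat.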

How the results depend on the processing

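Of the calls between tissues, 15 of the 19 collagens lower in liver than in fat and 10 of the 17 lower in liver than in muscle kept their call under each of 12 alternatives, as did 2 of the 3 higher in liver than in muscle and none of the 2 higher in liver than in fat or the 5 called in muscle against fat. Higher in liver than in fat were 1 with total counts and 1 without a breed term. On leaving out a library the number called also varied. The members' median log2 difference then ran from -3.66 to -2.80, and that of all genes from -0.05 to 0.11. For all genes the counts higher in liver than in fat were 1158 with total counts and 2003 without a breed term. Higher in muscle than in fat were 0 collagens with total counts, where 766 of 13810 genes were. For all genes the counts lower in muscle than in fat were 5247 with total counts, 1165 with DESeq2 and 768 without a breed term. Lower in muscle than in fat were 14 with total counts, 8 with DESeq2 and 1 without a breed term. The number called varied on leaving out a library. The members' median log2 difference was -0.23 without Korean native muscle, -0.59 without Korean native fat, -1.31 without Berkshire fat and -1.80 without Berkshire muscle. Beside them the medians of all genes were -0.06, -0.03, -0.04 and -0.22. Lower in Korean native over the 3 tissues were 0 in each alternative that kept all 6 libraries. On leaving out a library COL11A1, COL11A2 or COL6A5 was called in some fits. The members' median log2 difference then ran from -0.91 to 0.07, and that of all genes from 0.01 to 0.02. Within fat 4 collagens were higher at 1 CPM, 2 with DESeq2 size factors and 2 with total counts, and 3 were lower with 5 CPM asked of both libraries. The shares of all genes were 6.39%, 4.89%, 4.44% and 2.31% in the same order. Within liver 4 collagens were higher and 4 lower at 1 CPM, where 7.58% and 7.49% of all genes were. With 5 CPM in both they were 0 and 0, where 4.28% and 3.87% of all genes were. Within muscle 8 collagens were lower with 5 CPM in both and 21 with total counts, where 7.07% and 17.5% of all genes were. No called value turned sign, but under at least 1 alternative 4 of 28 members did in liver against fat, 12 in muscle against fat, 3 in liver against muscle and 12 between breeds. Among those given in the report or called under an alternative, signs turned for COL11A1 in muscle against fat. Its values were -0.014 with total counts, -0.90 without a breed term, and -1.62 to 3.97 on leaving out a library. The last were below 0 without either Korean native library of fat or muscle. The following ranges are also those on leaving out a library. COL3A1 there ran from -2.13 to 0.49, above 0 without the same libraries, 0.26 being that without fat. COL1A2 there ran from -2.13 to 0.67, above 0 without the same libraries, 0.24 being that without fat. COL6A1 there ran from -1.36 to 0.12, with 0.12 and 0.00023 without the same libraries, and was -1.54 with total counts. COL8A1 there ran from -1.59 to 0.25, above 0 without Berkshire fat, and was -1.74 with total counts. COL2A1 in liver against fat ran from -7.95 to 0.19, above 0 without Berkshire liver. In liver against muscle COL2A1 ran from -8.74 to 3.51, above 0 without Berkshire muscle. The cause was not tested. For the genes given in the report or called under any fit, 763 alternative values stayed on their side of the threshold. Another 51 lost and 49 gained a call, and 13 turned sign. With the companion list counts and the breed ratios within tissues added, 1240 values were the same, 89 weaker, 74 stronger and 24 moved. List counts were judged by the size of their change and breed ratios by the counting interval, without a test. Libraries were paired across tissues by breed, as a term of the model. A pairing by animal was not possible because the labels name no animal. Members under 10 CPM in all libraries, 7 in number, rest on few counts, and 1 library per breed and tissue limits every comparison of breeds.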
